A study of Mus musculus with 4 samples.

Results

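The imprinted genes *H19*, *Igf2*, *Meg3*, *Dlk1*, *Peg3*, *Plagl1*, *Grb10*, *Mest* and *Ndn* were followed in quiescent mouse embryonic fibroblasts (MEFs) with and without *Phf2*. They were chosen by name from 10 symbols, and 9 of these were found among the 24391 gene rows of the count table. The remaining symbol, *Zac1*, is a synonym of *Plagl1* and has no row of its own. All 9 genes passed the filter on low counts that left 13668 genes for testing.

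Imprinted genes are transcribed mainly from one parental allele, and a methylation mark set in the germ line tells the alleles apart. They lie in clusters in which a protein-coding gene of one parental allele is often paired with a noncoding RNA of the other allele. Many control the growth of the embryo and placenta and remain active in embryonic fibroblasts. In the best-known cluster, the insulator protein CTCF binds the unmethylated maternal copy of a control region between *Igf2* and *H19*, and cohesin is held there.

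The RNA-seq held 4 libraries of primary MEFs from E13.5 embryos, 2 labelled wild-type (WT) and 2 labelled *Phf2* KO. Phf2 is a reader of the histone mark H3K4me3 and, in the study, a protein that binds cohesin, so the comparison asks which transcripts differ when it is deleted. All 4 libraries carried the genotype Phf2 flox/flox, ERCre/+, that is, both *Phf2* alleles flanked by loxP sites and a tamoxifen-inducible Cre expressed from the Rosa26 locus. The protocol, worded alike for all samples, gives arrest at confluence in Opti-MEM with 2% charcoal-treated FBS, and 7 days of 4-OHT (4-hydroxytamoxifen) at 0.5 µM. The sample descriptions name tamoxifen for the *Phf2* KO libraries only and its absence for the WT libraries. Loss of Phf2, Cre activity and 4-OHT therefore cannot be told apart. Parental alleles were not separated either, so each value is the sum of both alleles of a gene.

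The libraries held between 21094743 and 26094268 counts, and a count of 3, used as the floor of detection, corresponded to between 0.116 and 0.145 CPM, the unit of counts scaled to library size used below. *Phf2* itself had 3244 and 3680 reads in the WT libraries against 1454 and 2158 in the *Phf2* KO libraries, and its level in *Phf2* KO was 57.9% of WT. Its log2 fold change was -0.79 (SE 0.14), with an adjusted p of 0.999 (edgeR quasi-likelihood, Benjamini-Hochberg). A count per gene does not show which exons its reads came from. The study examined the depletion by immunoblot and reports that nearly all Phf2 ChIP-seq peaks were absent from *Phf2* KO MEFs. *Xist*, the RNA of the inactive X chromosome, had 10042 (WT) and 8336 (*Phf2* KO) reads in the replicate 1 libraries and 3 and 12 in the replicate 2 libraries. The Y-linked *Ddx3y* had 6 and 10 reads in the former and 1271 and 1295 in the latter. The replicate numbers thus separated female from male cells in both groups. Summed fibroblast markers (10 genes, all detected in every library) reached 81367 and 84789 CPM in WT and 73778 and 71063 CPM in *Phf2* KO. Summed macrophage markers (12 genes) reached 3491 and 3919 CPM in the replicate 1 libraries of WT and *Phf2* KO, and 758 and 1187 CPM in their replicate 2 libraries.

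The short sequences that mark the *H19*-*Igf2* control region are shown first, because the cluster is a known CTCF- and cohesin-bound region. A CTCF core motif of 14 letters, with the bases that vary between the sites below left free, was searched on both strands in the 10000 bases upstream of each gene start in NCBIM37 (mm9), and 4 matches were found upstream of *H19*. They lie at 2166, 2621, 3647 and 3891 bases from its start and are given on the strand of *H19* (minus), with the motif in capitals.
*H19* site 1, chr7:149766206-149766235: agacgatgCCGCGTGGTGGCAGtacaatac
*H19* site 2, chr7:149766661-149766690: ggatgctaCCGCGCGGTGGCAGcatactcc
*H19* site 3, chr7:149767687-149767716: cagggttgCCGCACGGCGGCAGtgaagtct
*H19* site 4, chr7:149767931-149767960: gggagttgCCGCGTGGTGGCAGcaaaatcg

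The motif was found in 81 of 20823 such windows (0.389%), and 4 matches occurred in 2 windows, that of *H19* and that of *Mir675*, which lies inside *H19* and covers the same bases. The motif fits the sites of *H19* by construction, so nothing is drawn from the lack of a match upstream of the other 8 genes. A match is a description of the sequence, and CTCF binding was not analysed here.

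No imprinted gene of the set was called between *Phf2* KO and WT. The number called was 0 of 9 at an adjusted p of 0.1 (edgeR quasi-likelihood, Benjamini-Hochberg over all genes tested), where 0.00732% of all genes (1 of 13668, in the direction of *Phf2* KO below WT) were called. The count was also 0 at an unadjusted p of 0.05, against 2.67% of all genes below and 1.54% above WT, and DESeq2, which called 0.399% of all genes, also called 0. A fit with a block for the replicate number called *Meg3* higher and *Mest* lower, where 5.77% of all genes were called higher and 5.20% lower. The labels do not say that the numbers mark pairs, but the numbers separate female from male cells in both groups. Without the block, edgeR did not call *Phf2* itself, so a gene left uncalled there is not shown to be unchanged. The estimates of the 9 genes ran from -0.33 (*Mest*) to 0.38 (*Meg3*) on the log2 scale, 6 below 0 and 3 above, with a median of -0.08. Over all genes tested the median was 0.01 and 48.8% of estimates lay below 0.

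Together the 9 genes took between 0.573% and 0.778% of all counts of a library. Per kilobase of annotated exon, averaged over the 4 libraries, *H19* stood highest at 459 RPKM, followed by *Meg3* (149 RPKM), *Dlk1* (143 RPKM), *Igf2* (100.5 RPKM), *Ndn* (95.7 RPKM), *Grb10* (59.7 RPKM), *Plagl1* (50.8 RPKM), *Peg3* (24.5 RPKM) and *Mest* (6.26 RPKM). *Meg3* and *Dlk1* changed places between libraries, as did *Igf2* and *Ndn*, while the other neighbours in this order kept it in all 4. The value of *Meg3* depends on the 18089 bases of exon that the annotation gives it. In CPM, which are not divided by length, *Meg3* ranked 34 of 13668 genes and *Mest* 6325, with the other 7 genes between them.

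**Figure D1:**
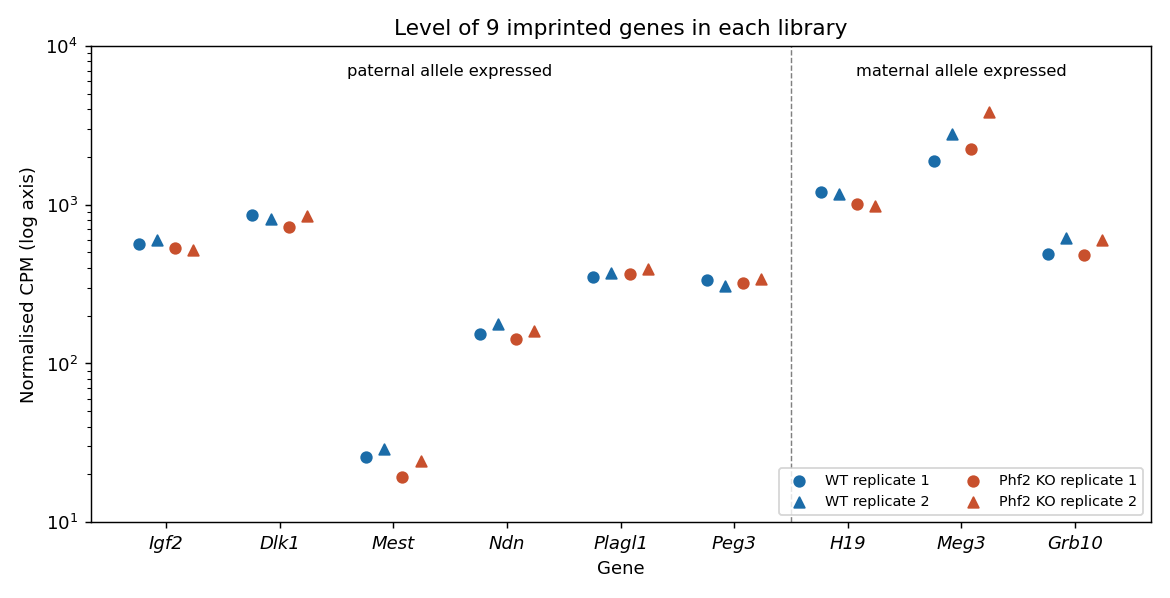
Normalised CPM (log axis) of the 9 imprinted genes in each of the 4 libraries. Circles are replicate 1 and triangles replicate 2, blue is WT and orange *Phf2* KO, and genes are grouped by the parental allele they are known to be expressed from. *Meg3* differed most between replicate numbers, from 1882 to 2794 CPM in WT and from 2239 to 3848 CPM in *Phf2* KO.

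*H19*, a maternally expressed noncoding RNA known to restrain growth (chr7:149761434-149764048, minus strand, mm9), had 28879 and 30150 reads in the WT libraries against 21018 and 23518 in the *Phf2* KO libraries. After scaling these were 1198 and 1162 CPM against 1014 and 978 CPM. Both *Phf2* KO libraries lay below both WT libraries, with little spread within a group: 1180 ± 25.6 CPM in WT and 996 ± 25.5 CPM in *Phf2* KO (SD, n = 2 each). The level in *Phf2* KO was 84.4% of WT. The log2 fold change was -0.24 (SE 0.095, 95% confidence interval -0.50 to 0.01), with an adjusted p of 0.999 (edgeR quasi-likelihood, Benjamini-Hochberg). Within replicate number 1 the log2 ratio was -0.24 (-0.27 to -0.21) and within number 2 it was -0.25 (-0.27 to -0.22), where the intervals cover counting error only.

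*Igf2*, the paternally expressed growth factor of the same cluster, lies 72.6 kb from *H19* (chr7:149836673-149852721, minus strand). It had 13648 and 15461 reads in the WT libraries against 10999 and 12385 in the *Phf2* KO libraries, or 566 and 596 CPM against 531 and 515 CPM. The *Phf2* KO libraries again lay below the WT libraries, by a smaller margin. Means were 581 ± 20.9 and 523 ± 11.1 CPM (SD, n = 2 each), so that *Phf2* KO reached 90.0% of WT. The log2 fold change was -0.15 (SE 0.091), and the log2 ratios within the replicate numbers were -0.09 and -0.21.

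The balance of the cluster, taken as *H19* counts per *Igf2* count within a library, was 2.12 and 1.95 in the WT libraries against 1.91 and 1.90 in the *Phf2* KO libraries. *H19* outweighed *Igf2* in all 4 libraries, and both *Phf2* KO ratios lay below both WT ratios. A two-sided exact permutation test gave p = 0.333, which is the smallest that 2 against 2 libraries allow. Of the other genes listed for this region, 8 of 17 were tested, and edgeR called 0 without the replicate block and 1 with it (*Kcnq1ot1*, log2 fold change 0.61, adjusted p 7.84e-09). Over all genes tested, edgeR called 0.00732% without the block and, with it, 5.77% higher and 5.20% lower. *Cdkn1c*, a maternally expressed inhibitor of cyclin-dependent kinases, stood at 356 and 350 CPM in WT and 341 and 304 CPM in *Phf2* KO.

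*Mest*, a paternally expressed gene for a protein of the alpha/beta hydrolase fold, was the third gene of the set whose groups did not overlap. It had 625 and 753 reads in the WT libraries against 401 and 582 in the *Phf2* KO libraries. In CPM these were 25.9 and 29.0 against 19.4 and 24.2. *Mest* was the least abundant of the 9 genes, and the margin between the lower WT and the higher *Phf2* KO library was narrow. *Phf2* KO was at 79.3% of WT, and the log2 fold change was -0.33 (SE 0.15, 95% confidence interval -0.74 to 0.07). It was -0.42 within replicate number 1 and -0.26 within number 2. *Mest* (chr6:30673547-30698457, plus strand) overlaps the opposite-strand gene *Copg2* by 904 bases. *Copg2*, a coatomer subunit gene that is also imprinted in mouse, had 28.9 and 22.6 CPM in WT and 19.6 and 21.2 CPM in *Phf2* KO, for a log2 fold change of -0.34 (SE 0.16). The strand setting of the read counting was not given in the sources used here, so how reads of the shared bases were treated is not known.

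*H19*, *Igf2* and *Mest* were thus 3 of 9 genes with both *Phf2* KO libraries below both WT libraries. The same held for 18.0% of all genes tested. The reverse order held for 0 of 9 genes and for 15.5% of all genes. In both replicate numbers, 5 of the set (*H19*, *Igf2*, *Grb10*, *Mest* and *Ndn*) were lower in *Phf2* KO and 2 (*Meg3* and *Plagl1*) were higher, where 30.2% and 32.6% of all genes did so. The summed fibroblast markers were also lower in both *Phf2* KO libraries, but 4 of the 10 markers (*Col1a1*, *Col3a1*, *Fn1* and *Postn*) had groups that did not overlap. The others, *Vim*, *Thy1*, *Pdgfrb*, *Pdgfra*, *Col1a2* and *S100a4*, stood at 102%, 102%, 107%, 97.1%, 94.2% and 90.5% of WT. Whether the markers bear on the lower values was not tested, and in bulk RNA fewer cells of a type and less RNA per cell cannot be told apart.

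**Figure D2:**
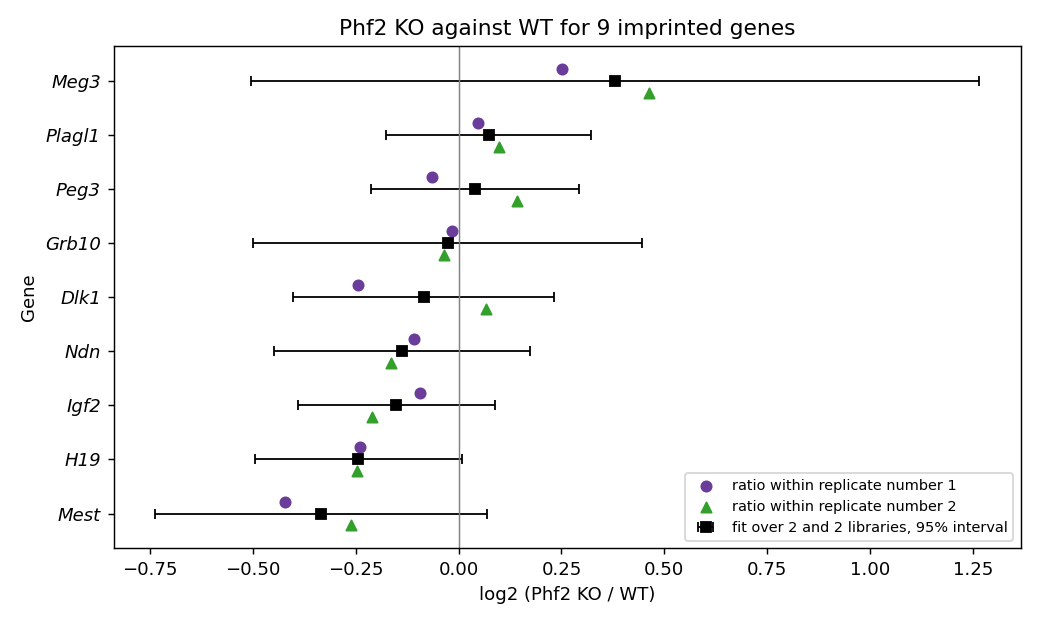
log2 ratio of *Phf2* KO to WT for each imprinted gene. Squares are the estimates over the 2 WT and 2 *Phf2* KO libraries with 95% confidence intervals, circles the ratios within replicate number 1 and triangles those within replicate number 2. The interval of each gene includes 0, and *Dlk1* and *Peg3* have the circle and the triangle on opposite sides of 0.

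*Meg3*, the maternally expressed noncoding RNA of the chromosome 12 cluster (chr12:110779211-110809936, plus strand), had the largest estimate of the set and the largest difference between replicates. It had 45374 (replicate 1) and 72511 (replicate 2) reads in the WT libraries against 46393 and 92496 in the *Phf2* KO libraries, or 1882, 2794, 2239 and 3848 CPM in that order. The groups overlapped, since WT replicate 2 stood above *Phf2* KO replicate 1. Means were 2338 ± 645 CPM in WT and 3043 ± 1137 CPM in *Phf2* KO (SD, n = 2 each), and *Phf2* KO reached 130% of WT. The log2 fold change was 0.38 (SE 0.33, 95% confidence interval -0.51 to 1.27), with an adjusted p of 0.999 (edgeR quasi-likelihood, Benjamini-Hochberg). Without *Phf2* KO replicate 2 it was -0.06. That fit sets *Phf2* KO replicate 1 against both WT replicates, so the difference between replicate numbers enters it.

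Within a replicate number *Meg3* was higher in *Phf2* KO, by 0.25 log2 units in number 1 and 0.46 in number 2. Between replicate numbers the step was larger, 0.57 in WT and 0.78 in *Phf2* KO, both toward replicate 2. Genes were ranked by the larger of their WT and *Phf2* KO steps in absolute value. Of all genes tested, 86.0% had a smaller value than *Meg3*, whose larger step was that in *Phf2* KO. The sex-linked genes and the macrophage markers separated the replicate numbers as well, and their part in the step of *Meg3* was not tested.

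*Dlk1*, the paternally expressed gene for a transmembrane protein with EGF-like repeats, lies 77.7 kb from *Meg3* (chr12:110691033-110701546, plus strand). It had 20670 and 21004 reads in the WT libraries against 15005 and 20383 in the *Phf2* KO libraries, or 858 and 809 CPM against 724 and 848 CPM. Its step from replicate 1 to replicate 2 was -0.08 log2 units in WT and 0.23 in *Phf2* KO, and its groups overlapped. The log2 fold change was -0.08 (SE 0.12), with -0.24 in replicate number 1 and 0.07 in number 2. Without *Phf2* KO replicate 1, which leaves a single replicate number against both WT replicates, the estimate was 0.02.

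*Meg3* counts per *Dlk1* count within a library were 2.20 and 3.45 in the WT libraries against 3.09 and 4.54 in the *Phf2* KO libraries. The groups overlapped, and a two-sided exact permutation test gave p = 0.667. The other maternally expressed RNAs downstream of *Meg3* did not all follow it. *Mirg*, a host of many microRNAs 163 kb from *Meg3*, had 1028 and 1648 reads in the WT libraries against 1120 and 2329 in the *Phf2* KO libraries, for a log2 fold change of 0.51 (SE 0.34). *Mirg* counts per *Meg3* count were 0.0227 and 0.0227 in the WT libraries against 0.0241 and 0.0252 in the *Phf2* KO libraries. Both *Phf2* KO ratios lay above both WT ratios, with p = 0.333 by the exact permutation test, again the smallest possible.

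*Rian*, a host of small nucleolar RNAs 32.2 kb from *Meg3*, had 5583 and 6141 reads in the WT libraries against 4109 and 6531 in the *Phf2* KO libraries. Its log2 fold change was 0.01 (SE 0.17). *Rian* counts per *Meg3* count were 0.123 and 0.0847 in the WT libraries against 0.0886 and 0.0706 in the *Phf2* KO libraries, so that *Rian*, which lies between *Meg3* and *Mirg*, varied less than either. *Rtl1*, a paternally expressed retrotransposon-derived gene, had 113 and 159 reads in the WT libraries against 97 and 174 in the *Phf2* KO libraries. Over the 8 further genes listed for this cluster, all tested, edgeR called 0 without the block and 1 with it (*Mirg*, log2 fold change 0.48, adjusted p 1.85e-06). The shares over all genes tested were 0.00732% without the block and, with it, 5.77% higher and 5.20% lower.

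**Figure D3:**
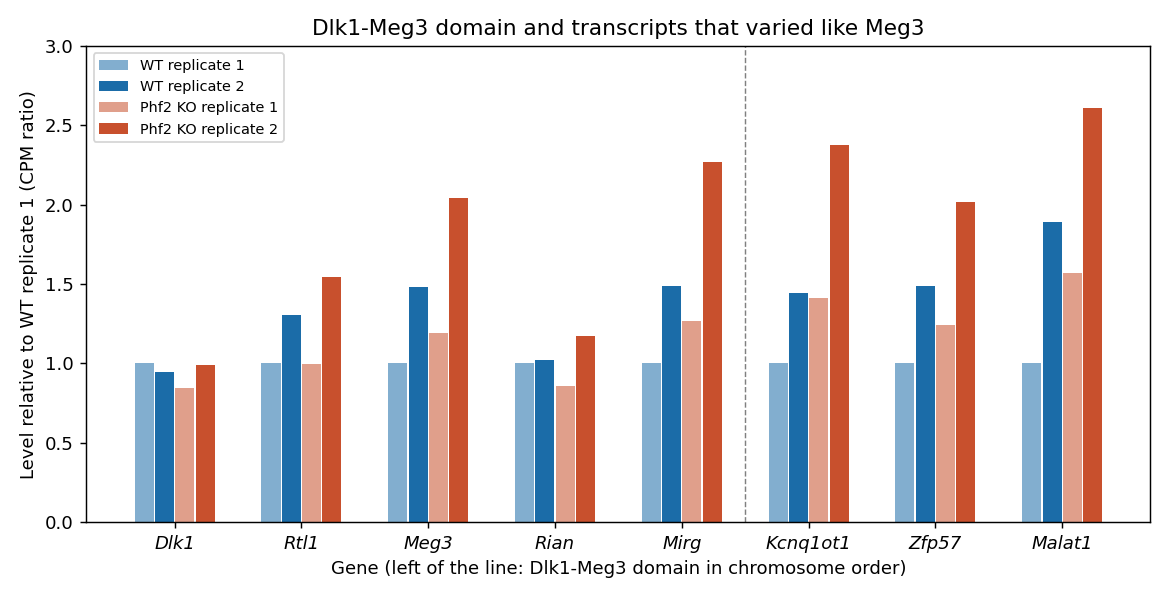
Level in each library relative to WT replicate 1 (CPM ratio) for 5 genes of the *Dlk1*-*Meg3* cluster in chromosome order and, right of the dashed line, 3 transcripts whose pattern lay near that of *Meg3*. *Meg3* reached 1.48, 1.19 and 2.04 and *Mirg* 1.49, 1.27 and 2.27 in WT replicate 2, *Phf2* KO replicate 1 and *Phf2* KO replicate 2, while *Dlk1* and *Rian* stayed nearer to 1.

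The pattern of *Meg3* over the 4 libraries was compared with 84 transcripts. These were imprinted genes, listed cluster neighbours, and genes of imprint maintenance and IGF signalling, all with at least 5 CPM. *Malat1* and *Neat1* were added after their values were seen. The measure was the Euclidean distance of centred log2 CPM. The nearest was *Zfp57* (distance 0.060), which encodes a zinc finger protein that protects imprints in the embryo. Then came *Mirg* (0.127), the paternally expressed antisense RNA *Kcnq1ot1* (0.253), *Rtl1* (0.291) and the nuclear RNA *Malat1* (0.321). *Zfp57* had 436 and 699 reads in the WT libraries against 465 and 877 in the *Phf2* KO libraries. *Kcnq1ot1*, which is read from the other strand of *Kcnq1*, was counted 608 and 946 times against 737 and 1442 times, with a log2 fold change of 0.63 (SE 0.32).

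*Malat1*, which is not imprinted and lies on another chromosome, had 47307 and 96247 reads in the WT libraries against 63900 and 123154 in the *Phf2* KO libraries. It thus stepped in the same direction as *Meg3* between replicate numbers. A pattern over 4 libraries rests on 4 values per gene, and how many genes lie near it was not counted. Among 10240 genes with at least 5 CPM, the closest to *Meg3* was *2810410L24Rik* (distance 0.050), and those closest to *H19*, *Igf2*, *Dlk1* and *Mest* were *Rbbp9*, *Acsf3*, *Tmem138* and *Tmtc2*. The closest to *Peg3*, *Plagl1*, *Grb10* and *Ndn* were *Rpain*, *Zbtb5*, *Polr2h* and *Prickle2*. None of these 9 genes is in the imprinted lists. Only 46 further genes of those lists had at least 5 CPM, against 10240 genes compared, so nothing is drawn from this.

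*Grb10*, which encodes an adaptor that dampens signalling from the insulin and IGF receptors and is expressed from the maternal allele outside the brain, also stepped between replicate numbers (chr11:11830511-11938686, minus strand). It had 11712 and 16031 reads in the WT libraries against 9963 and 14483 in the *Phf2* KO libraries, or 486 and 618 CPM against 481 and 602 CPM. The step toward replicate 2 was 0.35 log2 units in WT and 0.33 in *Phf2* KO, whereas within a replicate number the groups differed by -0.02 and -0.04. The log2 fold change was -0.03 (SE 0.18). Without WT replicate 2 it was 0.14, and without *Phf2* KO replicate 1 it was 0.13. These fits set a single replicate number against both, so the step between replicate numbers enters them.

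*Plagl1*, *Peg3* and *Ndn*, all paternally expressed, had estimates between -0.14 and 0.07. *Plagl1*, a zinc finger transcription factor also known as *Zac1* (chr10:12810497-12851500, plus strand), had 8501 and 9593 reads in the WT libraries against 7547 and 9506 in the *Phf2* KO libraries. In CPM this was 353 and 370 against 364 and 395, and the log2 fold change was 0.07 (SE 0.095). *Peg3*, a large zinc finger protein gene (chr7:6656603-6683132, minus strand), stood at 334 and 309 CPM in WT and 320 and 341 CPM in *Phf2* KO.

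The counts of *Peg3* were 8060 and 8009 in the WT libraries against 6630 and 8193 in the *Phf2* KO libraries, and its log2 fold change of 0.04 (SE 0.095) became -0.03 without WT replicate 2 and -0.01 without *Phf2* KO replicate 2. *Ndn*, a MAGE family gene of a single exon (chr7:69493163-69494814, plus strand), had 3694 and 4621 reads in the WT libraries against 2948 and 3822 in the *Phf2* KO libraries. This gave 153 and 178 CPM against 142 and 159 CPM. The groups of *Ndn* overlapped, although *Phf2* KO was lower in both replicate numbers, at log2 ratios of -0.11 and -0.16. Its log2 fold change was -0.14 (SE 0.12).

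**Figure D4:**
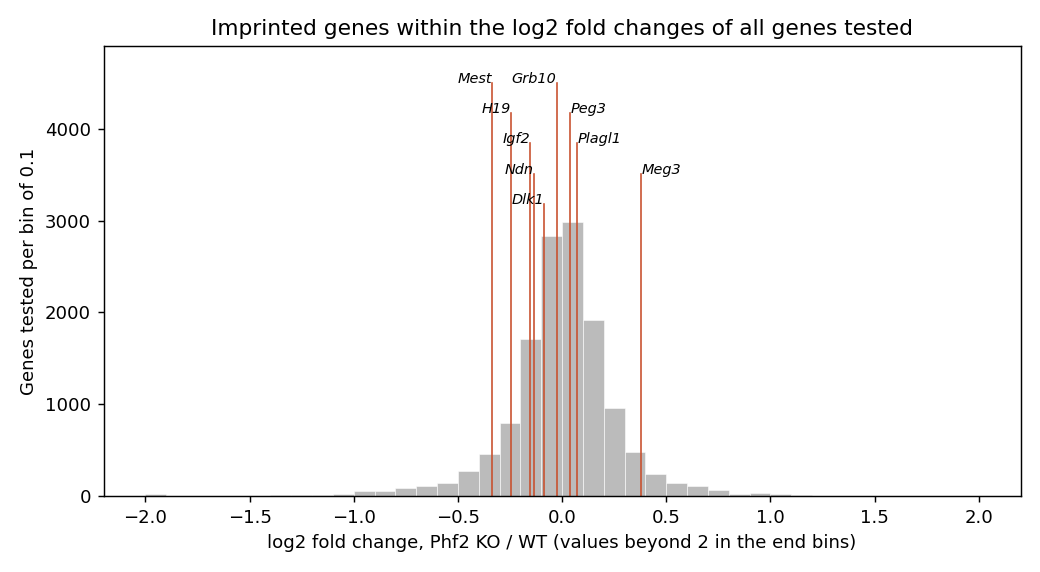
Number of genes tested per bin of 0.1 log2 fold change (*Phf2* KO against WT), with the 9 imprinted genes marked by lines whose heights carry no value. The imprinted genes lie between -0.33 and 0.38, and for *Mest* and *Meg3* 85.1% and 87.8% of all genes had a smaller absolute log2 fold change.

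*H19*, *Igf2*, *Meg3* and *Mest* host microRNAs, whose sequences are shown because the host RNA levels above do not report them. The mature sequences are from RefSeq (GRCm38.p6), with the seed (bases 2 to 8) in capitals.
miR-675-5p, in *H19*: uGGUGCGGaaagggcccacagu
miR-675-3p, in *H19*: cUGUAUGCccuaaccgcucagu
miR-483-5p, in *Igf2*: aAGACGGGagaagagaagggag
miR-483-3p, in *Igf2*: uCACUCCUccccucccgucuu
miR-770-5p, in *Meg3*: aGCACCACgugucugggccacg
miR-770-3p, in *Meg3*: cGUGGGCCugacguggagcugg
miR-335-5p, in *Mest*: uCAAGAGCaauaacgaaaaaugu
miR-335-3p, in *Mest*: uUUUUCAUuauugcuccugacc

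These microRNAs do not share a seed. *Mir675* and *Mir335* were listed at 0 in all 4 libraries and *Mir483* had 1 read, in *Phf2* KO replicate 2. Libraries made from fragmented mRNA do not measure mature microRNAs.

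Further imprinted genes and listed neighbours in the clusters above were counted in the same way. The neighbours were listed as genes of these clusters, whether or not they are imprinted themselves. Of these 90 genes, 88 had a row, 62 were tested and 0 were called by edgeR's quasi-likelihood test. Their estimates were 32 below and 30 above 0. Both *Phf2* KO libraries lay below both WT libraries for 12 of the 62 (19.4%) and above them for 8 (12.9%), against 18.0% and 15.5% of all genes. At an unadjusted p of 0.05, 2 of the 62 were lower (*Htr2a* and *Slc38a4*) and 2 higher (*Usp29* and *Nespas*), where 2.67% of all genes were lower and 1.54% higher. With the replicate block, edgeR called these 4 together with *Copg2* (lower), *Kcnq1ot1* and *Mirg* (both higher), against 5.20% of all genes lower and 5.77% higher.

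*Htr2a*, a serotonin receptor gene, had the largest absolute log2 fold change among those of at least 5 CPM, with 333 and 315 counts in WT and 149 and 164 counts in *Phf2* KO. Its log2 fold change was -0.89 (SE 0.15), and its adjusted p was 0.0769 with DESeq2 and 1.48e-07 in edgeR with the replicate block, while edgeR without the block did not call it. *Igf2r*, the maternally expressed receptor that clears Igf2, stood at 1030 and 1049 CPM in WT and 1064 and 1014 CPM in *Phf2* KO, for a log2 fold change of -0.00. *Dcn*, a proteoglycan of the fibroblast matrix, stood at 1786 and 1668 CPM against 1310 and 1602 CPM. Of the others with at least 5 CPM and the same side in both replicate numbers, the largest log2 fold changes were those of *Slc22a18* (-0.37), *Airn* (0.24), *Cobl* (-0.22), *Qpct* (-0.21) and *Begain* (-0.20), next to those given above. *Nespas* (24 and 33 counts against 43 and 54) is antisense to *Gnas*, and *Usp29*, next to *Peg3*, had 12 and 8 counts against 17 and 27, so that both rest on few reads. *Snrpn* and *Snurf*, which overlap each other, were listed at 0 in all libraries.

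Genes known to keep or read imprints were measured too, 17 of 18 being tested. None was called by edgeR's quasi-likelihood test without the block, and 1 (*Smchd1*, lower) had an unadjusted p under 0.05, where 2.67% of all genes were lower at that p. With the replicate block, edgeR called *Smchd1* lower (adjusted p 0.0367) and *Zfp57* (0.00547) and *Arid4b* (0.0730) higher. The block called 5.20% of all genes lower and 5.77% higher. *Smchd1*, a chromosomal protein of the inactive X chromosome and some imprinted clusters, stood at 25.5 and 22.2 CPM in WT and 19.3 and 18.7 CPM in *Phf2* KO (log2 fold change -0.33, SE 0.12). *Arid4b* had a log2 fold change of 0.25 (SE 0.14). *Ctcf* stood at 58.6 and 56.7 CPM in WT and at 50.1 CPM in both *Phf2* KO libraries, for a log2 fold change of -0.20 (SE 0.082).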

How the data were processed

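Per the study's methods, the authors used Trim Galore for trimming and bowtie2 to discard ribosomal RNA, aligned single-end reads to mm9 as a reverse-stranded library (STAR), and counted per gene by featureCounts. The deposited counts are unnormalised whole numbers per gene symbol. Versions, annotation and the featureCounts strand setting were not given in the sources used here. The authors' table of DESeq2 fold changes and p-values was not used.

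The imprinted genes and lists were chosen with earlier results of these data known. Counts were filtered with filterByExpr, scaled by TMM and tested for genotype in edgeR 4.0.16 (R 4.3.3, quasi-likelihood, Benjamini-Hochberg over 13668 genes, adjusted p under 0.1). Libraries held 21094743 to 26094268 counts, and 3 counts were the floor. CPM use TMM-scaled totals. RPKM divide CPM by exon length in GENCODE vM1 (NCBIM37, the build of mm9). Groups and replicate numbers came from the titles. The study calls the replicates biological, and p-values measure the spread between these samples, 1 female and 1 male per group. Alternatives were DESeq2 1.42.0, RLE or library size alone, no filter, 1 CPM in 2 libraries, an adjusted p of 0.05, a replicate block and leaving out each library.

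Named genes were the imprinted genes, *Phf2*, the imprinted genes with the largest changes alike in both replicate numbers, cluster neighbours, the 3 maintenance and 3 IGF genes with the largest changes, and each gene's nearest pattern. Others (*Slc38a4*, *Usp29*, *Nespas*, *Cdkn1c*, *Igf2r*, *Snrpn*, *Snurf*, *Ctcf*, *Malat1*, *Neat1* and the sex-linked genes) were named after their values were seen.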

Additional observations from a re-analysis of the deposited data

How the results depend on the processing

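With a replicate block, which compares libraries of the same number, 789 genes were called higher and 711 lower, against 0 and 1 without it, and the common dispersion was 0.00363 with it and 0.0451 without. Of the 9 imprinted genes it called *Meg3* higher (log2 fold change 0.36, adjusted p 0.0280, edgeR) and *Mest* lower (-0.34, adjusted p 0.0201, edgeR), where 5.77% and 5.20% of all genes were called higher and lower. *H19* had an adjusted p of 0.125 there. The block also called 4 further imprinted genes higher and 3 lower, 2 genes of imprint maintenance higher and 1 lower, and *Phf2* (-0.80, adjusted p 7.67e-19). The fit with the block leaves little replication per gene in 4 libraries, so its p-values rest largely on a dispersion shared across genes. The labels do not state that the numbers are pairs. The step from replicate 1 to 2 was correlated between WT and *Phf2* KO across 11553 genes (Pearson's r = 0.850, genes not being independent replicates), and the libraries of 1 number share sex.

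DESeq2 called 10 genes higher and 54 lower, 1 of them a further imprinted gene, and *Phf2* (-0.78, adjusted p 0.00321). In edgeR without the block, the count of lower genes was 0 at an adjusted p of 0.05. Leaving out 1 library turned the sign of *Meg3* (range -0.061 to 0.72), *Dlk1* (-0.20 to 0.024), *Peg3* (-0.033 to 0.11, with -0.033 without WT replicate 2 and -0.0089 without *Phf2* KO replicate 2) and *Grb10* (-0.20 to 0.14, with 0.13 without *Phf2* KO replicate 1). It did not turn *H19* (-0.28 to -0.21), *Igf2* (-0.18 to -0.13), *Mest* (-0.51 to -0.18), *Ndn* (-0.23 to -0.04) or *Plagl1* (0.01 to 0.13). Each such fit sets a single replicate number of 1 group, and so a single sex, against both of the other group. The step between replicate numbers therefore enters these estimates. Other scalings and filters left the sign and call of all 9 genes as they were. With 2 libraries a group, the 95% confidence interval of each of the 9 genes included 0 without the block.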

Other observations

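The pathway through which Igf2 and Grb10 act was measured in the same libraries, and 0 of its 14 listed genes were called by edgeR's quasi-likelihood test without the replicate block, with 0 at an unadjusted p of 0.05 and 0 by DESeq2. Over all genes, the corresponding shares were 0.00732% called, 2.67% lower and 1.54% higher at the unadjusted p, and 0.399% by DESeq2. With the block, edgeR called *Igfbp5* (adjusted p 0.000654) and *Irs1* (0.0123) lower and *Igf1r* (0.00776) higher. The block called 5.20% of all genes lower and 5.77% higher. *Igfbp5*, a secreted IGF-binding protein, had the largest estimate and stood at 1466 and 1014 CPM in WT and 1027 and 793 CPM in *Phf2* KO (log2 fold change -0.45, SE 0.23). *Irs1*, an adaptor of the insulin and IGF receptors, had a log2 fold change of -0.29 (SE 0.15). *Igf1r*, the receptor that transmits the Igf2 signal, had one of 0.29 (SE 0.16), with 120 and 159 CPM in WT and 160 and 180 CPM in *Phf2* KO. Proliferation genes (10 listed) summed to 261 and 174 CPM in WT and 229 and 182 CPM in *Phf2* KO, which overlapped.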
